A study of Homo sapiens with 16 samples.

Results

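10 genes of skeletal muscle were followed through a bulk RNA-seq study of PC3 cells, an established human prostate cancer line, grown as monolayers or as xenograft tumors. The genes were MYH1, MYH2, MYH4, MYLPF, TTN, ACTA1, TNNT3, TNNC2, CKM and MB. They are 10 of the 20356 genes in the deposited count table, and all 10 were found there. They were chosen by their counts in tumor and monolayer libraries, as muscle genes read in tumors, so their difference between tumors and monolayers is a description here and carries no test.

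The series held 16 libraries in 4 groups of 4: control monolayer cells, DDX4-null monolayer cells, control tumors and DDX4-null tumors. DDX4 encodes a germline RNA helicase, and the study asked what its loss does to the cancer-promoting properties of PC3 cells. The labels do not name the host of the xenografts, the graft site, the age of the tumors, or whether the DDX4-null cells came from 1 clone. Nothing in the labels ties a library to its own culture or animal. Each p-value therefore sets a difference only against the variation among libraries, which may be technical.

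Library totals ran from 12204254 to 25443952 counts, and 3 counts corresponded to 0.118 to 0.246 CPM (counts divided by the library's scaled total and multiplied by 1000000). DDX4 itself had 0 to 5 counts in every library, in control and DDX4-null groups alike, so the genotype labels could not be checked from it. The epithelial keratins KRT8 and KRT18 were read in all 16 libraries, with KRT8 between 187.7 and 367.7 CPM. DDX4-null tumor 3 stood apart from the other 7 tumors in the muscle genes described here. DDX4-null tumor 1 stood apart in the sum of 12 fibroblast markers, which was 11770 CPM there and 1895 to 2461 CPM in the other 7 tumors. The collagen genes COL1A1, COL3A1 and COL1A2 held most counts of this list, so the sum does not speak for each marker. Values are therefore given tumor by tumor.

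Skeletal muscle fibers contract when myosin thick filaments pull on actin thin filaments within a repeating unit, the sarcomere. Each fiber type uses its own myosin heavy chain gene: MYH2, MYH1 and MYH4 encode the fast IIA, IIX and IIB heavy chains. Calcium released from the sarcoplasmic reticulum binds the troponin complex and opens the thin filament to myosin, creatine kinase restores ATP, and myoglobin holds oxygen. These genes belong to differentiated muscle, and a prostate epithelial line is not a tissue in which they are known for high expression.

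The fast myosin genes lie next to each other on chromosome 17 and are close copies, which bears on how far their counts can be told apart. Over aligned coding bases of the GENCODE v29 transcripts, MYH1 shared 91.1% of bases with MYH2 and 89.7% with MYH4, and MYH2 shared 87.4% with MYH4. The 75-base window in which the 3 genes differ most is shown here, 5′ to 3′ along the coding strand. Capitals mark the 27 positions at which the 3 are not all the same. The window spans coding bases 3784 to 3858 of MYH1 and MYH4 and 3790 to 3864 of MYH2, counted from the first base of the start codon.
MYH1: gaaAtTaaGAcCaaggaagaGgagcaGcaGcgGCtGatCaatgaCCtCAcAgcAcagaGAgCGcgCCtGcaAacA
MYH2: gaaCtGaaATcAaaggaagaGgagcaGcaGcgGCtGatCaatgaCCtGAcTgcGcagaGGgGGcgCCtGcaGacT
MYH4: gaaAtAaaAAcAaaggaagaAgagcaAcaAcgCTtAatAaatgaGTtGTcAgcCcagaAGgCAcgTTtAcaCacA

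The longest run that the 3 genes share without a difference is 84 bases long and begins at coding base 2962 of MYH1. It is shown because a short read from it fits all 3 genes equally.
Shared run: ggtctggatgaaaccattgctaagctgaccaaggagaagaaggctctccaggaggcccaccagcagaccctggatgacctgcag

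Windows of 50 coding bases found in none of the other sarcomeric heavy chains compared (MYH1, MYH2, MYH4, MYH8, MYH3 and MYH13) made up 78.4% of MYH1, 81.4% of MYH2 and 85.9% of MYH4. For windows of 100 bases these shares were 92.3%, 94.2% and 96.5%. How reads that fit several genes were counted is not given in the sources used here, so the split of counts among the 3 myosin genes is uncertain. ACTA1 shared 86.1% of its coding bases with the cytoplasmic actin gene ACTB, which every cell uses. Its windows of 50 bases were nevertheless its own in 99.0% of cases against the 4 other actin genes compared.

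Start regions of 3 members are printed as examples and do not stand for those of the other members. RefSeq promoter sequences (build GRCh38.p14) were matched for 8 of the 10 members, in 11 entries, since MB has 3 and MYLPF 2. The 120 bases before the annotated start are given, 5′ to 3′ on the strand of the gene, with matches to the motifs searched in capitals. ACTA1 lies at chr1:229434095-229434214, MYH2 at chr17:10549659-10549778 and MYH4 at chr17:10469560-10469679, all on the minus strand.
ACTA1: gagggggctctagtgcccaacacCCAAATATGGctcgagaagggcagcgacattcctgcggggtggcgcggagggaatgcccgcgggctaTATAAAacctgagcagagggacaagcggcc
MYH2: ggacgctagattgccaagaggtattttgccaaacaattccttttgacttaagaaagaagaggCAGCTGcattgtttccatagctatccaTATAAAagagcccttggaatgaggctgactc
MYH4: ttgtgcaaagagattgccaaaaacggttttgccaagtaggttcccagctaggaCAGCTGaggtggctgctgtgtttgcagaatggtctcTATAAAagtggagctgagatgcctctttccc

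The capitals in ACTA1 are a CArG box and TATAAA, and those in MYH2 and MYH4 are an E-box (CANNTG) and TATAAA. Both strands of the 250 bases before each start were searched for these motifs and for the MEF2 site, whose matches can overlap the TATA box. This box was found in 4 of the 11 member entries and in 10.7% of all 35116 promoters, the E-box in 8 of 11 and 61.8%, the MEF2 site in 2 of 11 and 2.8%, and the CArG box in 1 of 11 and 1.16%. All 3 regions printed hold the TATA box, whereas CKM and both MYLPF entries had 0 matches to it. A match describes the letters of the window and is not a measured binding site.

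Of the thick filament genes, MYH4, the IIB heavy chain, had 1 count over the 8 monolayer libraries. Its level in control tumors 1 to 4 was 32.1, 67.0, 50.6 and 19.6 CPM, and in DDX4-null tumors 1 to 4 it was 23.7, 28.2, 0.401 and 41.7 CPM. DDX4-null tumor 3, with 7 counts, lay close to the monolayers, and the other 7 tumors were far above them. MYH4 was at least 896.6-fold higher in control tumors than in control cells, taking 3 counts over the group as the floor.

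MYH1, the IIX heavy chain, had 0 counts in all 8 monolayers. Control tumors read 289, 827, 1394 and 235 counts of it (20.3, 48.7, 50.9 and 11.9 CPM), and DDX4-null tumors 102, 186, 2 and 558 counts (9.02, 10.1, 0.115 and 34.8 CPM). The 2 counts in DDX4-null tumor 3 were under the 3-count floor. The ratio of group levels was at least 730.5 for control tumors over control cells and at least 328.5 for DDX4-null tumors over DDX4-null cells.

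MYH2, the IIA heavy chain, had 1 count over the 8 monolayers. It reached 9.67, 23.3, 22.3 and 7.04 CPM in control tumors and 7.69, 8.65, 0.229 and 15.6 CPM in DDX4-null tumors. As for MYH1 and MYH4, control tumors 2 and 3 and DDX4-null tumor 4 were highest and DDX4-null tumor 3, with 4 counts, lowest. MYH2 was at least 342.0-fold higher in control tumors than in control cells.

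MYLPF encodes the regulatory light chain of fast myosin and is now named MYL11. It had 6 counts over the 8 monolayers. Control tumors stood at 6.87, 7.94, 8.76 and 2.69 CPM and DDX4-null tumors at 6.01, 8.38, 0.115 and 13.95 CPM. DDX4-null tumor 4 was the highest tumor and DDX4-null tumor 3, with 2 counts, the lowest. The ratio of control tumors to control cells was 210.0, with an exact 95% counting interval of 57.8 to 1738, which covers counting error only, as do all such intervals here.

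**Figure D1:**
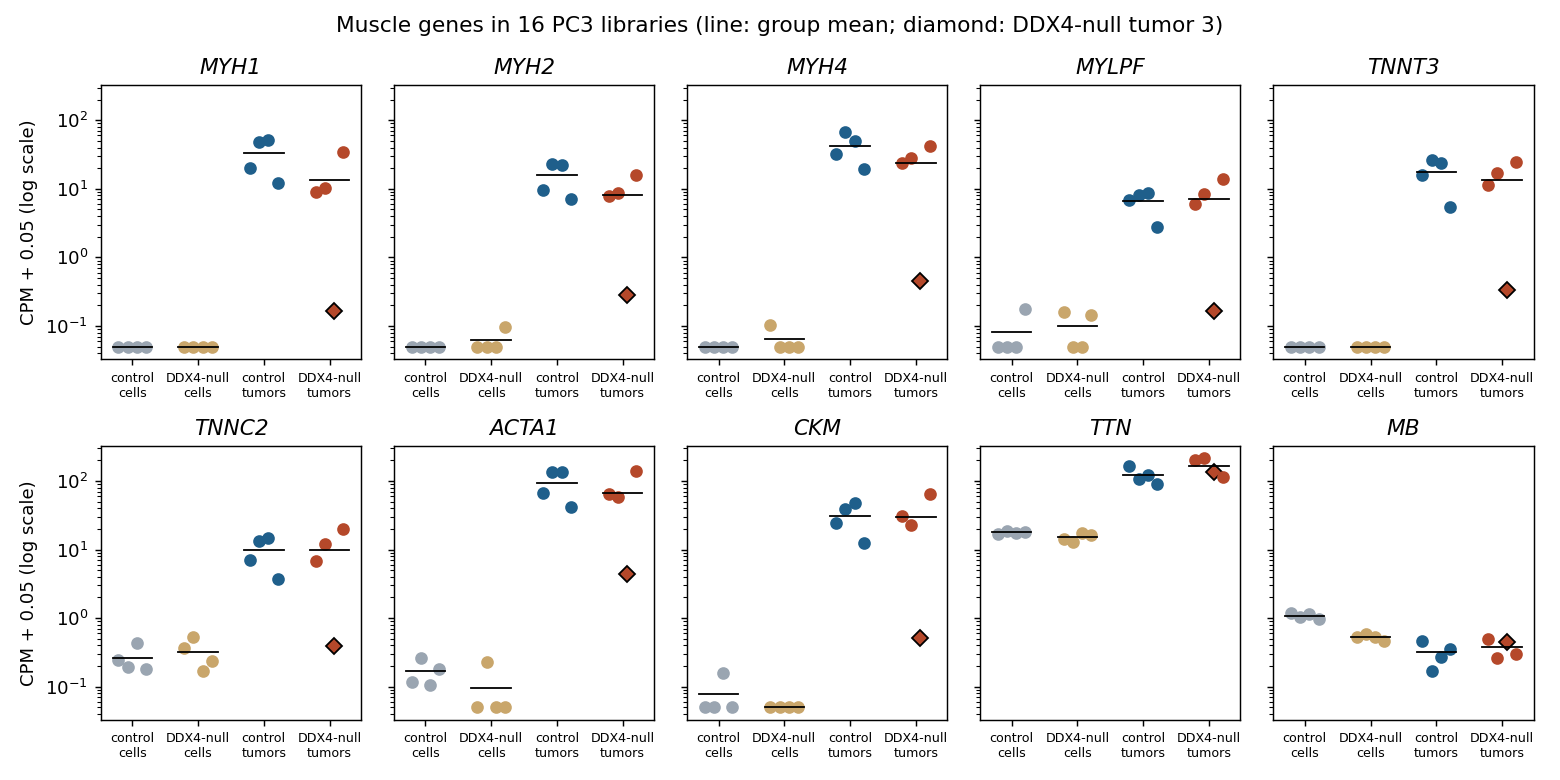
Level of each of the 10 members in each of the 16 libraries, in CPM plus an offset of 0.05 on a log axis, colored by group. Points are single libraries, lines are group means and the diamond is DDX4-null tumor 3. In the panels of 8 genes, 7 tumors stand well above the monolayers and DDX4-null tumor 3 lies lowest of the tumors, as at 0.401 CPM for MYH4, while MB and TTN show other patterns.

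Of the thin filament genes, ACTA1, skeletal alpha-actin, carried the most counts of the 8 genes. Control tumors gave 67.6, 135, 133 and 42.3 CPM and DDX4-null tumors 65.3, 58.4, 4.35 and 141 CPM, against 0 to 0.215 CPM in the monolayers. DDX4-null tumor 3 held 76 counts of ACTA1, so this gene remained above every monolayer there. ACTA1 was 883.4-fold higher in control tumors than in control cells (95% interval 428.5 to 2198).

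TNNT3, fast troponin T, which ties the troponin complex to tropomyosin, had 0 counts in all 8 monolayers. It stood at 15.98, 25.9, 23.7 and 5.37 CPM in control tumors and at 11.4, 16.7, 0.286 and 24.8 CPM in DDX4-null tumors. Control tumor 4 was the lowest of the 7 tumors other than DDX4-null tumor 3. The ratio to the matching monolayers was at least 378.7 for control and at least 325.8 for DDX4-null tumors.

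TNNC2, the calcium-binding fast troponin C, differed from the other 7 in having counts in every monolayer, from 2 to 8 per library. In CPM, control tumors read 7.01, 13.3, 14.6 and 3.70 and DDX4-null tumors 6.72, 12.2, 0.344 and 19.9. DDX4-null tumor 3, with 6 counts, fell inside the monolayer range of 0.121 to 0.473 CPM. TNNC2 was 45.5-fold higher in control tumors than in control cells (95% interval 27.0 to 83.6).

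CKM, muscle creatine kinase, had 2 counts over the 8 monolayers. It was at 24.6, 39.0, 48.1 and 12.6 CPM in control tumors and at 30.4, 23.0, 0.458 and 65.3 CPM in DDX4-null tumors. DDX4-null tumor 4 held the highest level and DDX4-null tumor 3, with 8 counts, the lowest. CKM was 1030-fold higher in control tumors than in control cells (95% interval 284.8 to 8509). With 3 counts as the floor, it was at least 707.8-fold higher in DDX4-null tumors than in DDX4-null cells.

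TTN and MB did not follow these 8 genes. TTN encodes titin, the giant spring protein that spans from the Z-disc to the M-band. It was read in every monolayer, at 16.7, 18.9, 17.5 and 18.2 CPM in control cells and at 14.01, 13.0, 17.7 and 15.99 CPM in DDX4-null cells. Control tumors stood at 163, 107, 121 and 90.2 CPM and DDX4-null tumors at 203, 215, 136 and 115 CPM. All 8 tumors were above all 8 monolayers, DDX4-null tumor 3 included, and that tumor ranked 5 from the lowest. The ratio was 6.62 in control tumors over control cells (95% interval 6.22 to 7.05) and 10.9 in DDX4-null tumors over DDX4-null cells (10.3 to 11.6).

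MB, myoglobin, went against the heading of muscle genes read in tumors. Control cells had 17, 14, 20 and 14 counts and DDX4-null cells 9, 9, 8 and 9, whereas control tumors had 6, 2, 6 and 6 and DDX4-null tumors 5, 4, 7 and 4. Every control tumor was below every control cell library, while DDX4-null tumors overlapped DDX4-null cells. The level in control tumors was 0.246 of that in control cells (95% interval 0.141 to 0.411), and the corresponding ratio for the DDX4-null libraries was 0.664 (0.363 to 1.18). Counts this low limit what can be said of MB in the tumors.

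Without overlap between the groups, 9 of the 10 members were higher in all control tumors than in all control cells, a pattern held by 22.0% of all 20356 genes, and MB was lower (18.4% of all genes). In the DDX4-null libraries 8 of 10 were higher in all tumors than in all monolayers (22.2% of all genes), the exceptions being TNNC2 and MB. These shares only describe the members, which were chosen for this difference. Of the whole table, 4709 genes had at most 3 counts over the 8 monolayers and 295 of these had at least 20 counts over the 8 tumors. The 5 members MYH1, MYH2, MYH4, TNNT3 and CKM were among those 295, and by tumor counts MYH4 ranked 3, CKM 4, MYH1 5, TNNT3 7 and MYH2 8 of them. In bulk tumors, fewer cells of a type and less RNA per cell cannot be told apart. Whether the counts come from human or host RNA was not tested: the table gives counts per human gene only.

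Per kilobase of exon, which allows levels of different genes to be compared, ACTA1 was highest in control tumors at 63.3 ± 31.4 CPM per kb (mean ± SD, n = 4). CKM followed at 18.8 ± 9.44 and TNNC2 at 11.01 ± 5.89. MYH4 (7.03 ± 3.46), TNNT3 (6.21 ± 3.25), MYLPF (5.87 ± 2.41) and MYH1 (5.47 ± 3.28) were not separated beyond their spread. MYH2 (2.35 ± 1.27) came below them, TTN stood at 1.01 ± 0.261 and MB at 0.122 ± 0.0593. Although the ranges over tumors overlapped, ACTA1 exceeded CKM and TNNC2 exceeded MYH4 in 8 of 8 tumors, and CKM exceeded TNNC2 in 7 of 8. By contrast MYH4 exceeded TNNT3 in 3 of 8 tumors.

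The share of ACTA1 within the summed counts of the 8 genes varied little among 7 tumors, and the shares of the other 7 genes varied more. MB and TTN were set aside from this sum after their values were seen. ACTA1 made up 35.3% to 40.7% of the counts, MYH4 11.7% to 18.6%, CKM 10.8% to 19.0% and MYH1 5.63% to 14.5%. The highest share over the lowest was 1.15 for ACTA1, 1.53 for MYH2, 1.59 for MYH4, 1.75 for CKM, 1.97 for TNNT3, 2.09 for TNNC2, 2.29 for MYLPF and 2.57 for MYH1. In DDX4-null tumor 3 ACTA1 made up 69.1% of 110 counts (95% exact interval 59.6% to 77.6%), above its range in the other 7 tumors.

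**Figure D2:**
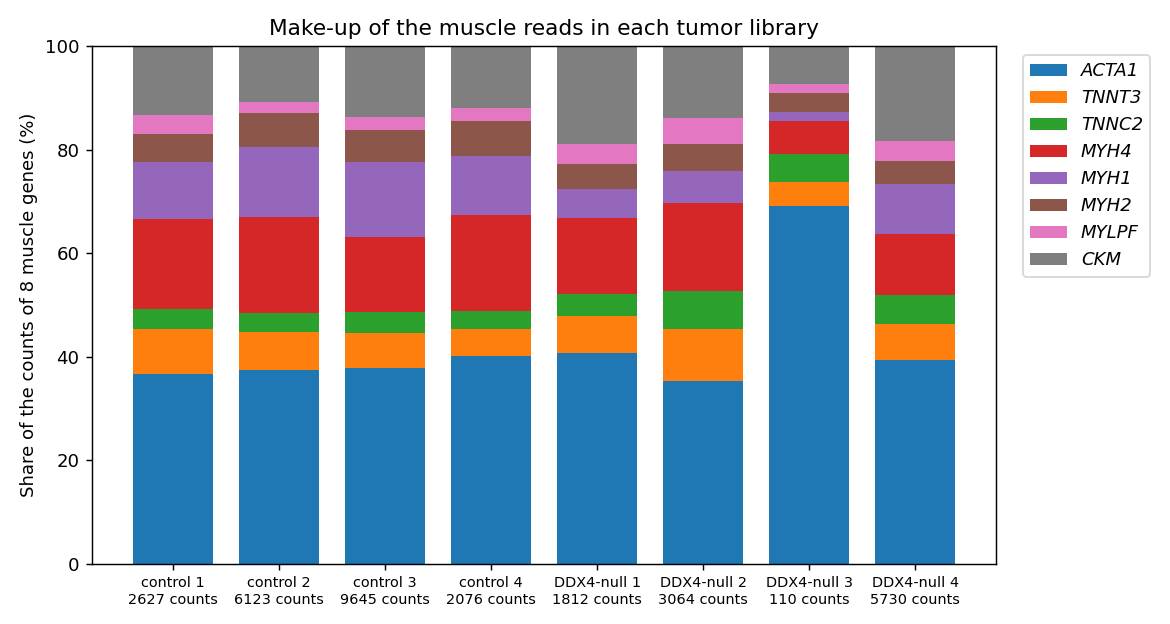
Share of each of the 8 genes in their summed counts, in percent, for the 8 tumors. Bars are single tumors stacked by gene. ACTA1 takes between 35.3% and 40.7% in 7 tumors and 69.1% in DDX4-null tumor 3.

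The myosin genes kept less even ratios. Per length, MYH4 over MYH1 was 1.59, 1.38, 0.996 and 1.65 in control tumors 1 to 4 and 2.63, 2.81 and 1.20 in DDX4-null tumors 1, 2 and 4. MYH1 over MYH2 ran from 1.28 to 2.50 over the same 7 tumors, lowest in DDX4-null tumors 1 and 2. ACTA1 over CKM ran from 2.38 to 3.84. In DDX4-null tumor 3 it was 10.5, from 76 and 8 counts.

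Across tumors the 8 genes went up and down together. Their summed level was 184, 360, 352 and 105 CPM in control tumors and 160, 166, 6.30 and 357 CPM in DDX4-null tumors, against 0.121 to 0.650 CPM in the monolayers. Pearson's r of log2(CPM + 0.5) over the 8 tumors was 0.905 to 0.99 for the 28 pairs of these genes (median 0.97). Without DDX4-null tumor 3 it was 0.535 to 0.971 (median 0.879), lowest for MYH1 with MYLPF. TTN had r between -0.246 and 0.114 with the 8 genes and MB between -0.603 and -0.453. These correlations describe tumors that share library preparation and scaling, and carry no p.

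DDX4-null tumor 3 was the lowest of the 8 tumors for each of the 8 genes. The median of the other 7 tumors over its level was 15.5 for ACTA1, 35.4 for TNNC2, 42.2 for MYH2, 58.4 for TNNT3, 66.4 for CKM and 80.1 for MYH4. MYH1 and MYLPF had 2 counts there, too few for a ratio. Its total of 16358259 counts lay inside the range of the other tumors. MYH4 had 7 counts in that tumor and 268 to 1386 in the other 7, whose totals ran from 12204254 to 25443952. Why the values were low there was not tested.

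Loss of DDX4 was then compared within tumors, a contrast that the heading of the members does not name. The members were, however, chosen with earlier results of these data known. No member passed the test. Of 10 members 9 passed the filter on low counts (all but MB). The quasi-likelihood test of edgeR called 0 of the 9 at an adjusted p of 0.05, where 2.09% of all 12942 genes tested were called. Of these calls 47.0% were higher (36.6% with library totals in place of TMM scaling). At an unadjusted p of 0.05 edgeR found 0 of the 9, beside 2763 of the 12942 genes. DESeq2 called 0 members, beside 481 genes called higher and 399 called lower, and found 1 member at an unadjusted p of 0.05. The median log2 difference, DDX4-null minus control, was -0.42 over the 9 members and -0.001 over all genes. In none of the 10 members were the 2 genotypes' tumors without overlap, a pattern found in 3.97% of all genes with DDX4-null tumors above and in 4.84% with them below.

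Among the fast myosins, MYH1 had the largest estimate of the members, a log2 difference of -1.30 ± 0.78 (SE, edgeR adjusted p 0.353). The estimate was -0.97 ± 0.67 for MYH2 (edgeR adjusted p 0.423) and -0.86 ± 0.69 for MYH4 (edgeR adjusted p 0.494). A missed threshold at errors of this size does not show that the genotypes' levels were alike. ACTA1 had -0.50 ± 0.67, TNNT3 -0.42 ± 0.71, CKM -0.07 ± 0.74, TNNC2 0.01 ± 0.70 and MYLPF 0.11 ± 0.69 (edgeR adjusted p from 0.694 to 0.991). TTN had the smallest error, with 0.47 ± 0.22 (edgeR adjusted p 0.236). Over the 16 settings run the estimates moved widely, from -2.39 to -0.87 for MYH1, -1.52 to -0.55 for MYH2, -1.29 to -0.44 for MYH4, -1.16 to -0.10 for ACTA1, -0.91 to -0.004 for TNNT3 and 0.34 to 0.65 for TTN.

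The comparison was repeated without DDX4-null tumor 3, which stood apart. The 8 genes summed to 250.4 ± 126.3 CPM in control tumors (SD, n = 4) and to 172.3 ± 143.5 CPM in DDX4-null tumors (SD, n = 4). Leaving out that tumor gave 227.6 ± 112.0 CPM for the DDX4-null group (SD, n = 3), the median over the members became -0.004 and 0 members were called. The estimate for CKM then changed sign, to 0.34 ± 0.43. The sum in the DDX4-null group rested as much on its highest tumor, since without DDX4-null tumor 4 it was 110.7 ± 90.48 CPM (SD, n = 3). Without DDX4-null tumor 1 or 2 it was 176.3 and 174.5 CPM, and the control sum was 213.8 to 298.8 CPM with 1 control tumor left out.

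**Figure D3:**
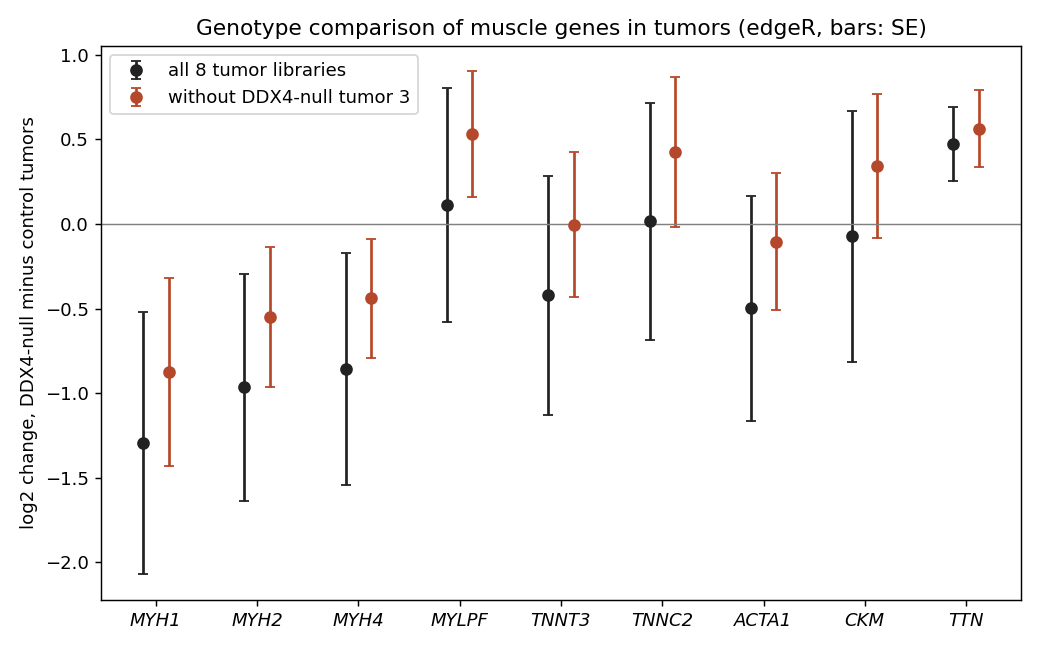
Log2 difference between DDX4-null and control tumors for the 9 members tested, with and without DDX4-null tumor 3. Points are edgeR estimates and bars are standard errors. MYH1 lies lowest, at -1.30 with all 8 tumors, and no member passed the test in either fit.

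In monolayers only MB and TTN had enough counts to be tested. MB fell in DDX4-null cells, with a log2 difference of -1.11 ± 0.28 (edgeR adjusted p 0.0015), in a comparison in which 67.3% of all 13006 genes were called and 32.3% were called lower. The 4 control libraries stood at 1.13, 1.01, 1.11 and 0.906 CPM and the 4 DDX4-null libraries at 0.483, 0.532, 0.485 and 0.417 CPM, without overlap, as for 19.2% of all genes. TTN did not pass, with -0.23 ± 0.12 (edgeR adjusted p 0.098), but passed with -0.31 when library 3 of the DDX4-null cells was left out (edgeR adjusted p 0.0346).

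A further 88 muscle genes in 5 lists were examined beside the members. All 4 control tumors lay above all 4 control cell libraries in CPM for 41 of the 88 (22.0% of all 20356 genes) and below them for 6 (18.4% of all genes). All 4 DDX4-null tumors lay above the DDX4-null cell libraries for 25 (22.2%) and below them for 7 (23.3%). By list, control tumors lay above for 19 of 29 sarcomere genes, 8 of 18 genes of calcium handling and excitation, 6 of 15 energy genes, 6 of 16 slow and cardiac genes and 2 of 10 developmental genes.

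The filter on low counts kept 36 of the 88 in control tumors against control cells, of which edgeR called 24 higher and 5 lower. However, 18 of the 36 passed the filter only through the tumors and had to differ, and all 18 were called higher, so that nothing is read from the 24. The other 18 passed in the control cells alone, and of them 6 rose and 5 fell, beside 31.1% and 33.0% of the 12042 genes that passed in those cells. In DDX4-null tumors against DDX4-null cells 27 passed the filter, of which 18 were called higher and 5 lower. Of these 27, 18 passed in the cells alone, with 9 called higher and 5 lower, beside 32.1% and 37.0% of 12624 genes. Of all 12858 genes tested in the control comparison 64.9% were called, 33.9% higher and 31.0% lower, and of 13277 in the DDX4-null comparison 69.8%, 34.6% higher and 35.3% lower. Higher genes were 52.2% of the calls in the control comparison, and 66% with library totals in place of TMM scaling, which moved the median of all genes from 0.02 to 0.19.

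Sarcomere genes formed the largest list. Of 29 genes 13 were tested in control tumors, 10 called higher and 2 lower, and of the 4 that passed the filter in cells alone 1 rose and 2 fell. ACTN2, alpha-actinin of the Z-disc, had 0 counts in all monolayers and read 120, 289, 402 and 105 counts in control tumors and 42, 78, 1 and 220 in DDX4-null tumors. MYL1, an essential light chain of fast myosin, had 1 count over the 8 monolayers and 3 counts in DDX4-null tumor 3, where the other 7 tumors held 70 to 412. NEB, the thin filament ruler nebulin, read 3 to 5 counts in control cells and 134 to 529 in control tumors. Its log2 difference was 5.82 ± 0.47. ACTN2, MYL1 and NEB passed the filter only through the tumors and had to differ. MYPN, the Z-disc protein myopalladin, fell by 2.99 on the log2 scale, from 46.8 ± 2.35 CPM in control cells (SD, n = 4) to 5.87 ± 1.40 CPM in control tumors (SD, n = 4).

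Of 18 genes of calcium handling and excitation 10 were tested, 6 called higher and 1 lower, and of the 6 that passed in cells alone 2 rose and 1 fell. ATP2A1, the calcium pump of fast fibers, rose by a log2 difference of 3.74 ± 0.28, from 32 to 53 counts in control cells to 355 to 1307 in control tumors. It had 84 counts in DDX4-null tumor 3 and 345 to 1006 in the other DDX4-null tumors. RYR1, the calcium release channel, had 1 to 2 counts in each control cell library and a log2 difference of 6.83 ± 0.57. It passed the filter only through the tumors and had to differ. CASQ1, the calcium store protein calsequestrin, and SRL, sarcalumenin, had 0 counts in control cells and 273 and 122 counts over the 4 control tumors.

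Of 15 energy genes 5 were tested and 3 rose in control tumors, 2 of them among the 4 that passed in cells alone. The 3 were PYGM, muscle glycogen phosphorylase, ENO3, muscle enolase, and UCP3, a mitochondrial carrier of muscle. Their log2 differences were 3.70 ± 0.41, 1.64 ± 0.21 and 0.93 ± 0.21. PYGM passed the filter only through the tumors and had to differ. Of 16 slow and cardiac genes 6 were tested, 4 called higher and 2 lower, and of the 3 that passed in cells alone 1 rose and 2 fell. The cardiac actin ACTC1 had 1 count over the control cells and 124, 267, 454 and 99 in control tumors. MYH7, the slow heavy chain, and MYH6, the atrial heavy chain, had 0 counts in all monolayers and 85 and 167 over the control tumors. TNNI3, cardiac troponin I, rose by 0.94 ± 0.19.

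Of 10 developmental genes 2 were tested in control tumors and 1 was called higher, passing the filter only through the tumors. This was the perinatal heavy chain MYH8, with 0 counts in control cells and 36, 162, 179 and 45 in control tumors. The myogenic factors that drive muscle formation stayed near 0. MYOD1 had 1 count in all 16 libraries together, MYF5 had 0, and MYOG had 5, all in control tumors. MYF6, the factor most abundant in mature muscle, had 5, 8, 12 and 2 counts in control tumors and 3, 0, 0 and 6 in DDX4-null tumors.

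Loss of DDX4 in tumors called 1 of the 43 other muscle genes tested, against 2.09% of all genes (0.981% called higher). This was CLCN1, the muscle chloride channel, at 5.54 ± 0.804 CPM in control tumors (SD, n = 4) and 8.97 ± 0.941 CPM in DDX4-null tumors (SD, n = 4), a log2 difference of 0.70 ± 0.16 (edgeR adjusted p 0.0462). It did not go with the members, since DDX4-null tumor 3 held its highest level, 10.1 CPM. Its call was lost (edgeR adjusted p 0.0572 to 0.171) with the replicate block, with library totals in place of TMM scaling, and when any 1 tumor other than DDX4-null tumor 1 was left out. In monolayers 20 of the 88 were tested, of which 5 rose and 9 fell in DDX4-null cells (35.0% and 32.3% of all genes).

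Which genes varied most like the members was asked over the 8 tumors, among 14372 genes with at least 20 tumor counts. Against the summed level of all 10 members, of which TTN makes up a large part, the 12 most alike were EME1, PYGM, PSRC1, ATP2A1, MRRF, TNNI2, TPM1, CASQ1, ELOVL3, MYOZ1, MYL1 and OSGEP, with r from 0.986 to 0.934. Of these, 6 (PYGM, ATP2A1, TNNI2, CASQ1, MYOZ1 and MYL1) belong to the muscle lists. After leaving out the 2 tumors farthest from the median sum, DDX4-null tumor 3 and control tumor 4, r was 0.885 for EME1, 0.957 for PSRC1 and 0.915 for ATP2A1 but 0.484 for MYOZ1 and 0.518 for MYL1, so those rested largely on the tumors left out.

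Against the sum of the 8 genes, a choice made after the values were seen, the most alike were MYBPC2 (r = 0.984), ATP2A1 (0.983), TNNI2 (0.971), ACTC1 (0.967), ACTN2 (0.967), MYH8 (0.96), SRL (0.956), MYH13 (0.952), MYL1 (0.952), MYBPC1 (0.951), NDUFS5 (0.949) and CACNA1S (0.946). Without DDX4-null tumor 3 these were 0.963 for ATP2A1 and 0.97 for ACTC1, and 0.733 for MYL1. An r of 0.9 or more was reached by 37 of 14362 genes that are no members (0.258%). These included 6 of 27 sarcomere genes, 4 of 16 calcium genes, 3 of 11 slow and cardiac genes and 1 of 3 developmental genes, and no gene of the lists for smooth muscle, fibroblasts, endothelium, leukocytes, fat, hair follicle, Schwann cells, red cells or PC3 epithelium. These counts rested on DDX4-null tumor 3. Without it 40 genes reached 0.9, of which 10 had done so with it, and the counts became 1 of 27 sarcomere genes, 2 of 16 calcium genes, 1 of 9 energy genes, 1 of 11 slow and cardiac genes and 1 of 3 developmental genes.

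**Figure D4:**
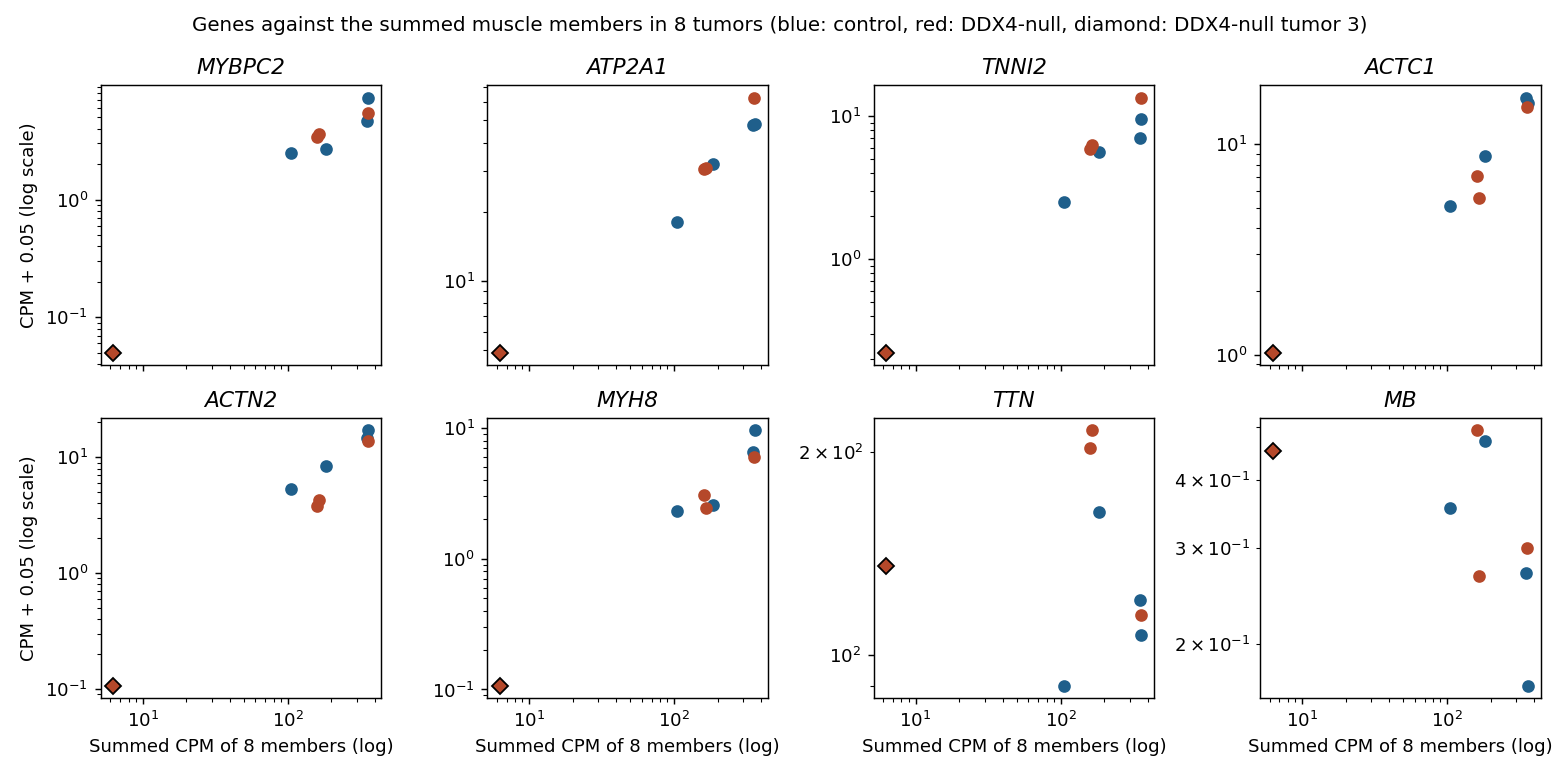
Level of 8 named genes (CPM plus an offset of 0.05) in the 8 tumors against the summed CPM of the 8 muscle genes, on log axes whose vertical range differs between panels. Points are single tumors, blue for control and red for DDX4-null, with DDX4-null tumor 3 as a diamond. ATP2A1 (r = 0.983) follows the sum, and TTN and MB do not.

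Markers of other cell types that a xenograft could hold were read in the same libraries. Fibroblast markers summed to 252 to 275.8 CPM in control cells and 1895 to 2461 CPM in control tumors, and DDX4-null tumor 3, at 2390 CPM, lay inside the range of the other tumors. Leukocyte markers summed to at most 2.19 CPM in the monolayers and to 17.8 to 84.5 CPM in the tumors, with 29.4 CPM in DDX4-null tumor 3. The sum of the fat cell markers went the other way, at 12.4 to 21.4 CPM in the 8 tumors and 85.9 to 126.3 CPM in the monolayers. Most of it in the monolayers was PLIN4 and FABP4, with 7567 and 5772 counts there and 279 and 278 over the tumors. LPL and LIPE had more counts in tumors, 456 and 144 against 0 and 7 over the monolayers, so this sum does not speak for each marker. Schwann cell markers summed to 53.4 to 62.0 CPM in control tumors and 124.3 to 138.6 CPM in control cells. This sum was mostly MBP, with 11889 counts over the monolayers and 6010 over the tumors, whereas PRX had 746 and 1518. Red cell markers, led by the globin gene HBB, were highest in DDX4-null tumor 3, at 15.7 CPM against 2.77 to 9.03 CPM in the other 7. The sum of the endothelial markers was also highest there, at 51.4 CPM against 31.1 to 46.3 CPM. KDR held the most counts of that list, 3156 over the tumors and 2885 over the monolayers. Another of its genes, 1 of 9, had 0 counts in DDX4-null tumor 3, so this sum does not speak for each marker. The sum of the 10 smooth muscle markers was lowest in DDX4-null tumor 3, at 210 CPM against 241.2 to 323.4 CPM. This sum was mostly SMTN, with 30462 counts over the 8 tumors, and DES came next with 2279. It does not speak for each marker. DES, desmin, which skeletal muscle also uses, had 10 counts in DDX4-null tumor 3 and 62 to 751 in the others. The part of these cell types in the member levels was not tested.

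Of the marker lists for other cell types, the hair follicle and skin list had calls between tumor genotypes, with 2 of 3 tested genes lower (1.1% of all genes were called lower), and the other lists had 0 by edgeR. With DESeq2 1 smooth muscle gene was called lower and 1 PC3 epithelial gene higher. Without DDX4-null tumor 3 edgeR called 1 PC3 epithelial gene higher and 0 hair follicle genes. The 12 fibroblast markers had a median log2 difference of 1.09 between genotypes. Of them 6 were at an unadjusted p of 0.05 by edgeR, beside 2763 of all 12942 genes tested. Their sum was 11770 CPM in DDX4-null tumor 1, but 2125, 2390 and 2342 CPM in DDX4-null tumors 2 to 4, within the 1895 to 2461 CPM of control tumors. The inner root sheath keratins KRT71 and KRT25 read 21, 115, 258 and 13 and 9, 122, 330 and 22 counts in control tumors, against 0 and 3 counts over the 4 DDX4-null tumors (edgeR adjusted p 0.0359 and 0.0285). Both calls were lost when control tumor 2 or 3 or DDX4-null tumor 2, 3 or 4 was left out, and that of KRT71 also without control tumor 1 (edgeR adjusted p 0.0515 to 0.105). Control tumors 2 and 3, the highest in both keratins, were also the 2 control tumors with the highest sums of the 8 muscle genes, 360 and 352 CPM. DDX4-null tumor 4, at 357 CPM of muscle genes, had 0 counts of both keratins.

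**Figure D5:**
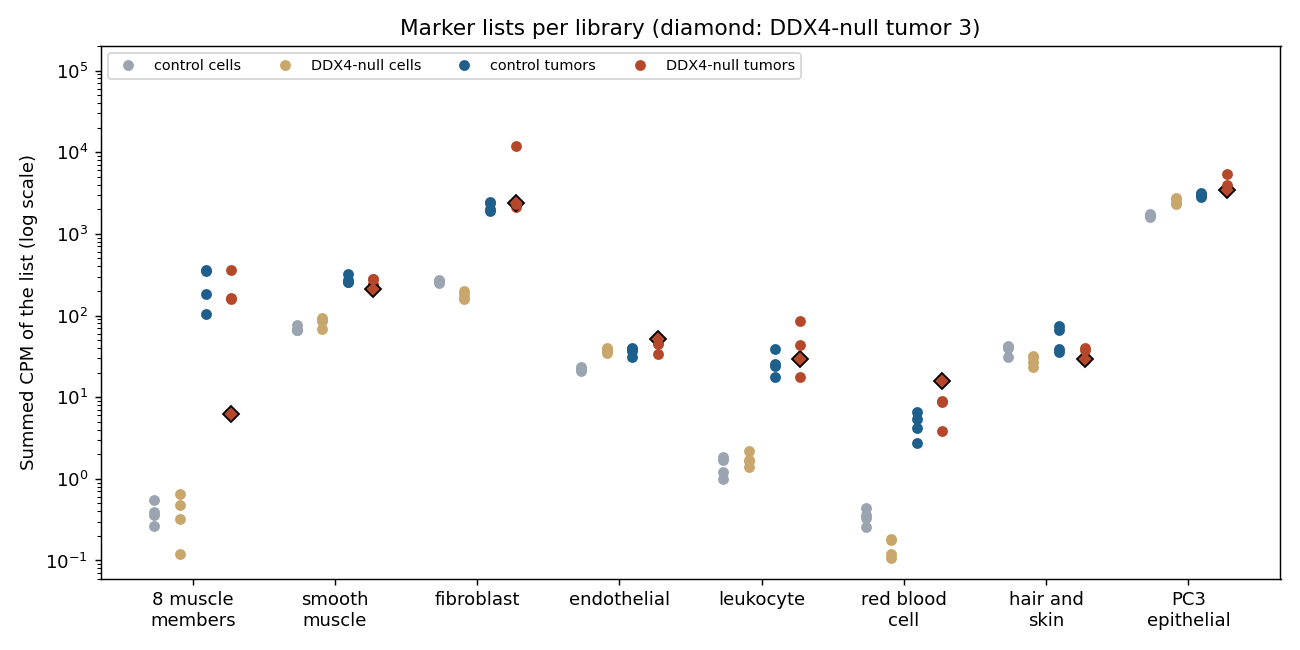
Summed level of each list of markers in each library, in CPM on a log axis, colored by group. Points are single libraries and the diamond is DDX4-null tumor 3. Fibroblast and leukocyte lists are higher in tumors than in monolayers in all 8 tumors, and the 8 muscle genes separate DDX4-null tumor 3, at 6.30 CPM, from the other 7.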

How the data were processed

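RNA of 16 libraries (4 per group) was sequenced from mRNA libraries of a stranded kit, per the labels' protocols. The authors deposited a table of raw counts per Ensembl gene. Trimmomatic 0.39, STAR 2.7.10a, featureCounts 2.0.3 and build GRCh37 are named in the submitters' processing notes. The handling of host reads, of strand and of reads that fit several genes, and the annotation used for counting, is not given in the sources used here.

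Symbols were matched for 19446 IDs through a table of gene names and for 65 through GENCODE v29 (MYLPF among them), and 845 IDs had none. Of 89 other muscle genes listed, 88 matched. The members and lists were chosen with earlier results of these data known, and MB and TTN were set aside from the 8-gene sums after their values were seen.

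CPM used TMM factors over all 16 libraries. Genes were tested on the whole table with edgeR 4.0.16 in R 4.3.3 (quasi-likelihood F test, TMM within each pair of groups, filterByExpr, Benjamini-Hochberg threshold 0.05). Standard errors are the log2 difference over the square root of F. Correlations used log2(CPM + 0.5). On simulated data for the tumor genotype comparison (12853 genes), the test recovered 90% of changes of 1 and 99% of changes of 2 (log2 scale), with 4.55% of its calls false. For DDX4-null tumors against DDX4-null cells (13153 genes) these shares were 92%, 100% and 9.43%. The recovered shares are averages over 100 genes changed at each size. Recovery for the members by themselves was not tested, so the shares are not read for them. Coding sequences were the longest open reading frames of GENCODE v29 transcripts, and exon lengths came from the same version.

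Named genes were the 10 members, up to 4 genes per other muscle list with the smallest p among those called in control tumors against control cells, up to 4 per list called between tumor genotypes, and the 12 genes most alike to the summed members. DES, the myogenic factors, HBB, KRT8, KRT18 and DDX4 are named besides as markers or checks. Alternatives were DESeq2 1.42.0, library totals in place of TMM, no filter or a stricter one, a replicate block, 1 model over all 16 libraries, and leaving out each library. Counts over genes that pass the filter in cells alone, and 8-gene sums without each tumor, were added after seeing the data.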

Additional observations from a re-analysis of the deposited data

Results flagged for a closer look

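MYH4, the fast IIB myosin heavy chain, was flagged because 1 DDX4-null tumor lay far from the other 3. On the log2(CPM + 0.5) scale DDX4-null tumor 3 stood at -0.15, and the other DDX4-null tumors stood between 4.597 and 5.40. The gap to the nearest tumor was 0.855 of the whole range of the group, above Dixon's 95% critical value for 4 samples. Chance flags about 1 in 20 groups. The same tumor was also the lowest of all 8 tumors for MYH1, MYH2, MYLPF, TNNT3, TNNC2, ACTA1 and CKM, whose gaps did not pass that value.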

How the results depend on the processing

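No member was called between tumor genotypes under any alternative run. TNNC2 changed sign with library totals (-0.058) and with the replicate block (-0.26), and MYLPF with the replicate block (-0.21). Leaving out 1 library at a time moved TNNC2 between -0.59 and 0.43, MYLPF between -0.45 and 0.53 and CKM between -0.82 and 0.34. The cause was not tested.

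All genes called between tumor genotypes numbered 270, and 880 with DESeq2, 425 with the replicate block, 808 in the model over 16 libraries and 26 to 289 with 1 library left out: leaving out control tumor 3 gave 26, control tumor 2 gave 47, control tumor 1 gave 134, and DDX4-null tumor 2 or 3 gave 129 each. Of the other muscle genes 1 was called there, and 2 with DESeq2 or in the model over 16 libraries, 0 with library totals or the replicate block, and 0 to 1 with 1 library left out. Without a filter on low counts, other muscle genes called went from 14 to 27 between monolayer genotypes, from 29 to 54 in control tumors against cells and from 23 to 49 in DDX4-null tumors against cells, where the model over 16 libraries called 40. Of all genes, the fits without the filter called 5080 higher and 4600 lower of 17068, 5003 and 4167 of 17211, and 5088 and 5130 of 17474. The model over 16 libraries called 4911 and 4948 of 13603 in the last comparison. Genes read almost only in tumors enter without the filter and had to differ, so nothing is read from the 54 or the 49. Leaving out 1 library gave 13 to 16, 28 to 37 and 19 to 38 other muscle genes called. The last reached 36 to 38 without any 1 library of DDX4-null cells or without DDX4-null tumor 3, when the filter asks for fewer libraries. Over all genes, leaving out 1 library gave 8315 to 8891, 7757 to 8331 and 8892 to 9519 calls. The summed level of the 10 members in DDX4-null tumors, 339.7 CPM, was 172.3 CPM without MB and TTN, and 295.6 to 405.5 CPM with 1 tumor left out (336.9 to 429.3 CPM in control tumors).

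The fall of MB in DDX4-null monolayers kept its call in all alternatives that tested it. The named muscle genes in control tumors against cells kept theirs too. Nothing is read from this for those that passed the filter only through the tumors, since they had to differ. Same-numbered libraries did not pair: the correlations of their deviations in the tumor comparison were 0.201, 0.193, -0.02 and -0.078, so the block carries only a shared number. Depth limits MB in tumors (2 to 7 counts) and MYH1 and MYLPF in DDX4-null tumor 3 (2 counts each).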
